A study of Rattus norvegicus with 2 samples.

Results

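The molecular chaperones of rat sympathetic neurons were followed on 2 arrays, as the 85 probe sets (of 15866 on the array, controls aside) whose only gene symbol begins as those of the Hsp, Dnaja, Dnajb, Dnajc, Cct and Bag families do, or is Tcp1. They stand for 67 of 10411 genes. Membership was decided by symbol and not by any measured value. The pattern also takes in 3 genes that are in no chaperone family: Hspg2 encodes perlecan, a proteoglycan of basement membranes, Hspbp1 is a nucleotide exchange factor of HSP70, and Hspbap1 is a protein that associates with a small HSP. Another 4 probe sets have several symbols of which at least 1 matches the pattern, and were left out, so Hspa8, Hsp90aa1 and Hspa1b have no value here.

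The first array held RNA of sympathetic neurons, the noradrenergic neurons that innervate heart and vessels, grown without a target, and the second held RNA of such neurons grown with myocytes, the muscle cells they contact, and lifted off the dish with EDTA. The title and source name gave each array its condition. The free-text description of the co-culture sample names neurons grown alone, and that conflict could not be settled. No strain, genotype, age or added agent is given in the sources used here. Per the series' design text, the question was which genes accompany the stop in growth that follows contact with a target. With 1 array per condition nothing could be tested, and every difference below is between these 2 arrays.

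Of 12 markers of sympathetic neurons 11 had a probe set of their own. All 11 passed the signal filter described below and all 11 were lower after co-culture, with summed intensities of 32342 alone and 25909 from co-culture. Of 7 cardiac markers on the array, 3 passed the filter and all 3 were higher from co-culture. Of the other 4, below the filter, Myh6, Myh7 and Myl2 were higher and Tnni3 was under the floor in both arrays, and the 7 summed to 822 alone and 1286 from co-culture. All 10 fibroblast and smooth muscle markers passed, with 8 higher and 2 lower (summed 45521 and 49721), and 3 of 4 glial markers passed, all 3 higher (1231 and 1608 over the 4). Of 5 macrophage markers 4 passed, 3 of them lower (1133 and 1028 over the 5), and both endothelial markers on the array were under the floor. The part that this makeup has in the chaperone values was not tested.

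Chaperones bind unfolded or partly folded proteins and help them to fold, to assemble or to be broken down. HSP70 proteins cycle between tight and loose grip on a client: J proteins (the DNAJ families) bring the client and start ATP hydrolysis, and exchange factors such as the BAG proteins and the HSP110 group release it. HSP90 takes later folding steps of kinases and receptors, the ring-shaped TRiC complex folds actin and tubulin, HSP60 with its lid HSP10 works in mitochondria, and small HSPs hold denatured proteins until others refold them. Neurons rely on these proteins along the axon and at terminals, where a J protein, Dnajc5, keeps the vesicle fusion machinery folded.

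Most chaperone transcripts differed little between the arrays. A probe set counted as above the signal filter if its intensity reached its array's median (186 alone, 175 from co-culture) in at least 1 array, and 62 of the 85 did, for 51 genes. A gene is called measured below if its brightest probe set passed. Of these 62, 1 was at least 1.5-fold higher after co-culture, where the share over all 8308 probe sets above the filter was 1.91%, and 3 were at least 1.5-fold lower, where that share was 4.24%. By direction alone 30 of the 62 were higher and 32 lower, beside 46.0% and 54.0% of all probe sets, and 51 of the 62 lay within 1.2-fold, beside 69.2%. By gene, each taken at its brightest probe set, 27 of 51 chaperone genes were higher, beside 47.3% of all 6368 genes above the filter, and 43 of 51 were within 1.2-fold, beside 70.8%. Their median log2 ratio (from co-culture over alone, as in all ratios here) was 0.01, and that of all genes -0.01. The chaperone median was 0.10 after scaling both arrays to equal medians and -0.09 after scaling to the spiked bacterial controls. Of the 62 probe sets 36 kept their sign under every scaling tried, so the direction of a difference near 0 depends on the scale.

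The spread expected of 1 probe set was taken from the 749 genes that more than 1 probe set measured above the filter. Its log2 ratio had an SD of 0.36 in the dimmest of 4 equal groups of genes by signal, 0.29 and 0.28 in the middle groups and 0.21 in the brightest. That is a spread between probe sets on the same 2 arrays and holds nothing of the spread between cultures. Of the 62 chaperone probe sets 14 went beyond 1 such SD, where 26.7% of all probe sets above the filter did, and 2 went beyond 2, where 5.51% did. The 749 genes include chaperones, and Bag6, whose probe sets lay 3.05 apart in log2 ratio, falls in the dimmest group. The SD of that group without Bag6 was not computed and would be smaller. Hspa13 and Hspa4, at 1.90 and 1.84 times the SD of 0.36, lie just short of 2, so the count beyond 2 depends on Bag6. When all probe sets above the filter were divided into 4 equal groups by signal, the brightest group held 25 chaperone probe sets, and 24 of these lay within 1.2-fold, where 80.2% of all probe sets in that group did. In the dimmest group 4 of 8 did, beside 54.5%.

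**Figure D1:**
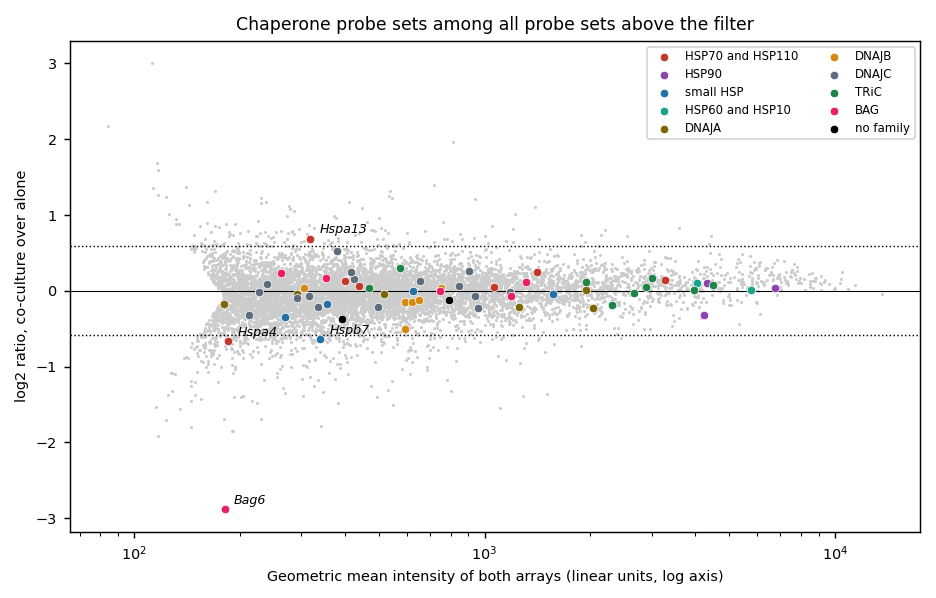
Log2 ratio between the arrays, co-culture over alone (y axis), against the geometric mean intensity of both arrays (x axis, log scale) for all 8308 probe sets above the filter (grey) and the 62 chaperone probe sets (coloured by family), with dotted lines at 1.5-fold. The 4 named points lie past 1.5-fold, and the chaperones of the brightest group gather near 0.

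Among HSP70 genes, the largest differences were at low signal and ran in opposite directions. Hspa13, an HSP70-like protein of microsomes, had an intensity of 251 alone and 403 from co-culture. This was 1.61-fold higher (log2 ratio 0.69, 0.58 to 0.77 over the scalings tried), against an SD of 0.36 for 1 probe set at this signal. Hspa4, a member of the HSP110 group that releases clients from HSP70, had 233 alone and 148 from co-culture, 1.58-fold lower (log2 ratio -0.66, -0.77 to -0.56 over the scalings). Hspa4 fell short of 1.5-fold after median scaling, quantile normalization and lowess, and Hspa13 after scaling to the spiked controls. Each of these genes rests on 1 probe set, so neither value has a second reading. Both signals were low for this set, and that of Hspa4 from co-culture was under the array median.

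The other HSP70 genes above the filter were slightly higher, though Hsph1 turned negative after scaling to the spiked controls. Hspa5, known as BiP, the HSP70 of the endoplasmic reticulum, had 3125 alone and 3458 from co-culture (log2 ratio 0.15). Hspa9, the mitochondrial HSP70, had 1295 and 1535 on its brightest probe set (0.24) and 427 and 448 on another (0.07), while a further probe set, below the filter, had 78.3 and 73.1 (-0.10). The first of these ratios exceeded the SD of 0.21. Hspa1a, the classic heat-induced HSP70, had 382 and 419 (0.13), and Hsph1, the stress-inducible HSP110, had 1046 and 1083 (0.05). Over the 6 genes of the family 5 were higher and 1 lower, beside 47.3% and 52.7% of all genes above the filter. The median log2 ratio was 0.14 and ran from 0.03 to 0.23 over the scalings. Below the filter were Hspa2 (122 and 139), Hspa12a (96.8 and 125), Hspa1l (19.2 and 37.2) and Hspa12b (10.5 and 6.40), the last pair under the floor of 39.6 in both arrays. The floor is the value to which lower intensities were raised.

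**Figure D2:**
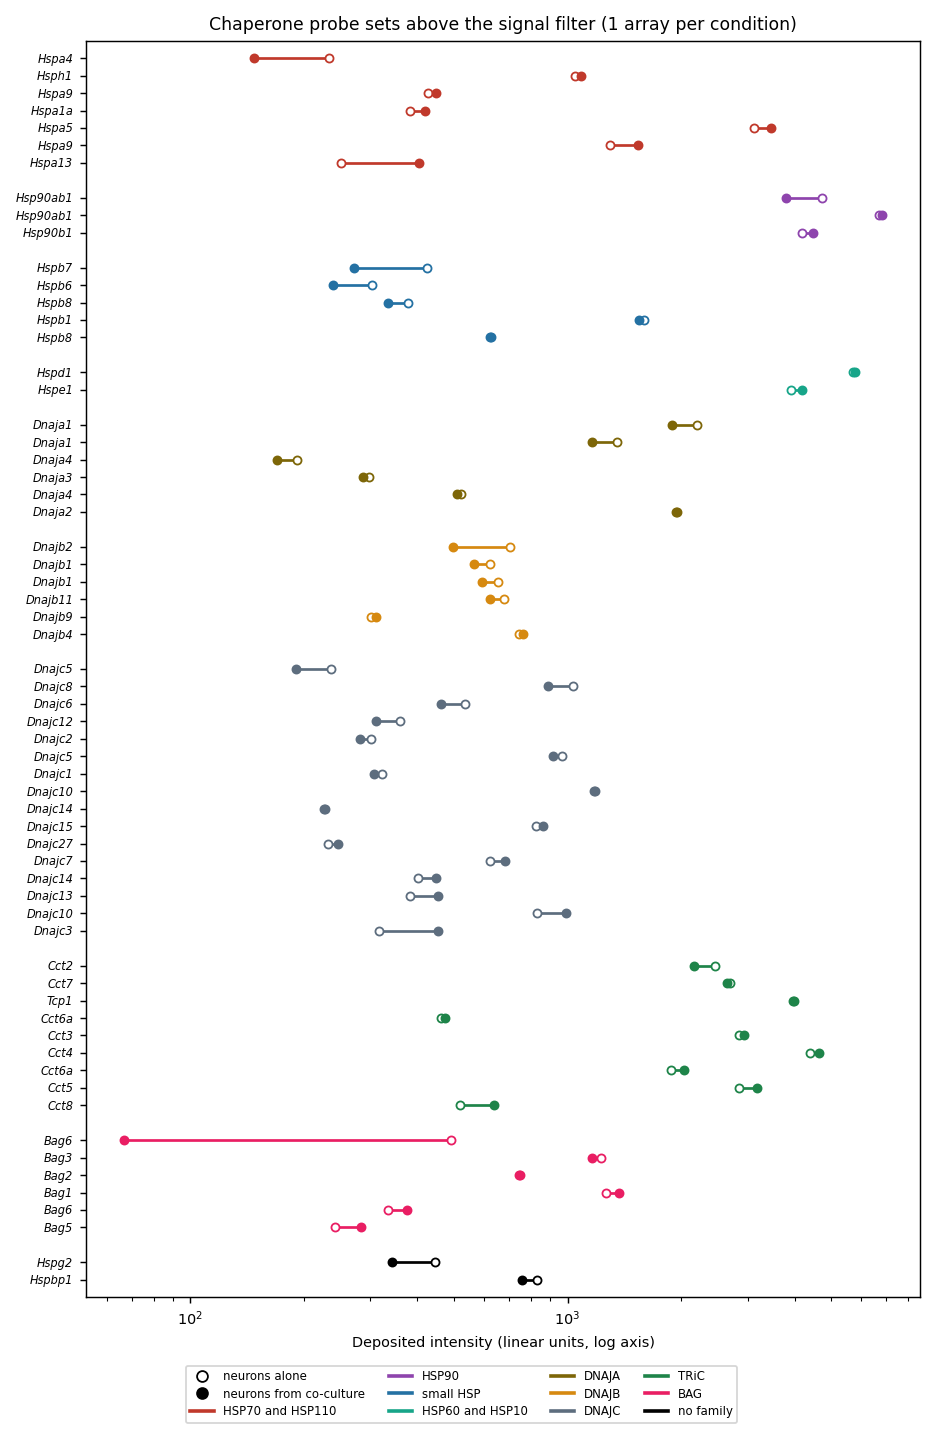
Deposited intensity (x axis, log scale) of each of the 62 chaperone probe sets above the filter (rows, grouped and coloured by family, a gene with several probe sets having several rows) in neurons alone (open circles) and neurons from co-culture (filled circles). Hspa13 and Dnajc3 show the longest lines to the right, and Bag6, Hspa4, Hspb7 and Dnajb2 the longest to the left.

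J proteins, which choose the clients of HSP70, formed the largest set, with 43 probe sets for 31 genes. None of the 28 probe sets that passed the filter reached 1.5-fold as deposited. Dnajc3 did so after median scaling (log2 ratio 0.61) and Dnajb2 after scaling to the spiked controls (-0.61). Over all probe sets above the filter, 1.91% were higher and 4.24% lower by 1.5-fold or more as deposited. In the DNAJA group, which is closest in build to the bacterial J protein, Dnaja1 had 2203 alone and 1889 from co-culture on 1 probe set and 1352 and 1164 on another, log2 ratios of -0.22 and -0.22. Dnaja2 had 1944 and 1949 (0.00). Dnaja3, the mitochondrial member, had 297 and 287 (-0.05), and Dnaja4 had 524 and 509 (-0.04) on its brighter probe set. Of these, Dnaja1 was the member lower by more than 1 SD (0.21), and on both of its probe sets. The median of the 4 genes was -0.04, between -0.15 and 0.04 over the scalings.

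In the DNAJB group the lowest ratio belonged to Dnajb2, a J protein enriched in neurons that sends clients to the proteasome. It had 705 alone and 497 from co-culture, 1.42-fold lower (log2 ratio -0.51, SD 0.28, -0.61 to -0.42 over the scalings). Dnajb1, the heat-inducible partner of HSP70, was measured by a pair of probe sets that gave nearly the same ratio, 654 and 592 on the brighter (-0.14) and 624 and 563 on the other (-0.15). Dnajb4 had 742 and 764 (0.04). The endoplasmic reticulum members Dnajb11 and Dnajb9 had 678 and 625 (-0.12) and 302 and 310 (0.04). The 5 genes above the filter had a median of -0.12, negative under every scaling tried (-0.22 to -0.03). Dnajb5, just under the filter, had 178 alone and 130 from co-culture. Dnajb12 (82.8 and 73.5 on its brighter probe set), Dnajb3 (13.6 and 64.7) and Dnajb13 (12.0 and 28.4) were dim.

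The DNAJC group, whose members share little beyond the J domain, had a median of -0.02 over 13 genes (-0.12 to 0.07 over the scalings), with 6 higher and 7 lower. Its widest difference was that of Dnajc3, a J protein of the endoplasmic reticulum that restrains the kinase PERK and was named after its value was seen. It had 316 alone and 454 from co-culture, 1.43-fold higher (log2 ratio 0.52, SD 0.29, 0.42 to 0.61 over the scalings). Dnajc10, a reductase of the same compartment, gave 1186 and 1173 on its brightest probe set (-0.02) and 828 and 990 on the other (0.26), so its probe sets differed in sign. Dnajc8, a spliceosome protein, had 1036 and 888 (-0.22). Dnajc15, of the mitochondrial import motor, had 825 and 862 (0.06), and Dnajc7, a co-chaperone that binds both HSP70 and HSP90, had 624 and 682 (0.13). Dnajc14 gave 402 and 447 on 1 probe set (0.15) and 228 and 226 on another (-0.01). Of the rest, named after their values were seen, Dnajc13, an endosome protein, had 383 and 454 (0.25), and Dnajc12, which binds the hydroxylases of aromatic amino acids, had 360 and 312 (-0.21), while Dnajc1 (323 and 308, -0.07) and Dnajc2 (301 and 282, -0.09) were near even. Dnajc24 (129 and 120 on its brighter probe set), Dnajc21 (72.0 and 87.5) and Dnajc4 (52.0 and 34.2) were below the filter.

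The J proteins listed for the synapse and clathrin coats were lower or near even. The endosome protein Dnajc13 was not on this list and was higher (0.25). Dnajc5, the cysteine string protein of synaptic vesicles, had 964 alone and 917 from co-culture (-0.07) on its brightest probe set and 237 and 190 (-0.31) on the other. Dnajc6, neuronal auxilin, which strips clathrin from vesicles, had 533 and 461 (-0.21, SD 0.29). A further probe set of Dnajc6, below the filter, had 112 and 109 (-0.04). Dnajc27, a Rab-like protein named after its value was seen, had 232 and 246 (0.08). With Dnajb2 these make the 4 measured genes of the list, with 3 lower, 1 higher and a median of -0.14. That median was negative under every scaling tried (-0.25 to -0.06), although Dnajc5 and Dnajc27 each changed sign under at least 1 scaling. Dnajb2, described above as sending clients to the proteasome, had the lowest ratio of the list (-0.51). A median without Dnajb2 was not computed. The 11 sympathetic neuron markers had a median of -0.43 and ranged from -1.34 to -0.12. In RNA pooled from many cells, fewer cells of a type and less RNA per cell cannot be told apart, and the co-culture RNA is that of the cells the EDTA step lifted off, not of the whole dish.

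The BAG proteins, which free clients from HSP70, were close to even in 5 of their 6 probe sets. Bag1 had 1262 alone and 1370 from co-culture (log2 ratio 0.12), Bag2 748 and 743 (-0.01), and Bag3, which links HSP70 to small HSPs and to autophagy, 1223 and 1163 (-0.07). Bag5 had 242 and 284 (0.23). Bag6, which guards membrane proteins on their way to the endoplasmic reticulum, gave opposite readings. Its brightest probe set had 334 alone and 375 from co-culture (0.17). Its other probe set had 492 alone and 66.7 from co-culture, 7.38-fold lower (log2 ratio -2.88), which was the lowest ratio of all 8308 probe sets above the filter (rank 1). That probe set passed the filter only in neurons alone, and its co-culture signal was under that array's median of 175. The gap of 3.05 between the Bag6 probe sets was the widest among the 749 genes with several, where the median gap was 0.20. Brightness is the mean log2 value of both arrays, so the second reading ranks as the dimmer one although it was the brighter one in neurons alone. With Bag6 at its brightest probe set the family median was 0.12. With genes at the mean of their probe sets Bag6 was at -1.36 in place of 0.17 and the family median at -0.0081, so the sign of that median depends on the rule for Bag6. The deposited values do not show which transcript of Bag6 each probe set reads.

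**Figure D3:**
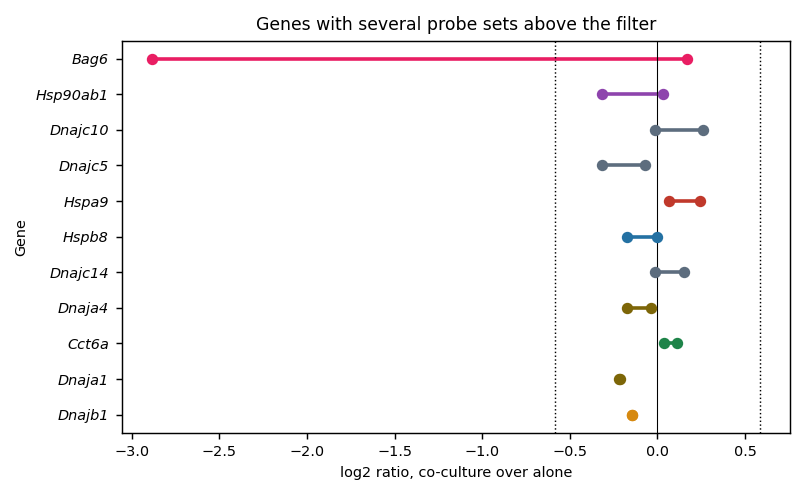
Log2 ratio of co-culture over alone (x axis) on each probe set above the filter for the 11 chaperone genes that have more than 1 (rows, coloured by family as in the plot of intensities), with dotted lines at 1.5-fold. Dnaja1 and Dnajb1 gave points that overlap, 4 genes had probe sets of opposite sign, and the probe sets of Bag6 lie 3.05 apart.

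Over these 11 chaperone genes the median gap between probe sets was 0.17. Signs differed in 4 of them (Bag6, Hsp90ab1, Dnajc10 and Dnajc14), and at the other 7 all probe sets above the filter lay on 1 side of 0.

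HSP90 genes were near even. Hsp90ab1, the constitutive cytosolic HSP90, had 6691 alone and 6834 from co-culture (log2 ratio 0.03) on its brightest probe set, and 4723 and 3792 (-0.32) on the other, which exceeded the SD of 0.21. Hsp90b1, GRP94 of the endoplasmic reticulum, had 4183 and 4473 (0.10). The helpers of HSP90 and HSP70 were spread to both sides: of 19 measured, 8 were higher and 11 lower, none by 1.5-fold (beside 5.23% of all genes above the filter in either direction), with a median of -0.08 that was 0.0049 after median scaling and -0.19 after scaling to the spiked controls. The brightest were Cdc37, which brings kinases to HSP90 (3183 and 2765, -0.20), and Ptges3, the p23 cochaperone (2976 and 3294, 0.15). The widest on each side, named after their values were seen, were the ubiquitin ligase Stub1, known as CHIP, with 1731 and 1349 (-0.36), and the HSP70 to HSP90 adaptor Stip1, known as HOP, with 1490 and 1773 (0.25). Hspbp1, which also belongs to this list, had 829 and 758 (-0.13).

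All 8 subunits of TRiC were above the filter, and 7 of them were within 1.2-fold, beside 70.8% of all genes above the filter. Tcp1 had 3960 alone and 3993 from co-culture (log2 ratio 0.01), Cct3 2849 and 2941 (0.05), Cct4 4379 and 4634 (0.08) and Cct5 2840 and 3185 (0.17). Cct6a had 1878 and 2033 (0.11) on its brightest probe set and 461 and 473 (0.04) on the other, and Cct7 had 2692 and 2639 (-0.03). The ends of the range were Cct2 with 2456 and 2162 (-0.18) and Cct8 with 519 and 637 (0.29). The subunits occur in equal number in the complex, and their ratios had an SD of 0.14 over the 8 genes, beside 0.30 over all genes above the filter, which include dimmer ones. The median was 0.06, and -0.04 after scaling to the spiked controls, so its sign depends on the scale.

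The proteins that act beside TRiC, passing clients to it or taking up released tubulin, were also within 1.5-fold. Among all genes above the filter 5.23% were past it in either direction. Of 11 measured prefoldin subunits, phosducin-like proteins and tubulin cofactors, 8 were higher and 3 lower, beside 47.3% and 52.7% of all genes above the filter. Their median was 0.11 (0.0010 after scaling to the spiked controls). The tubulin cofactors Tbca and Tbcb, the brightest of the list, had 2270 and 2305 (0.02) and 1474 and 1592 (0.11). The 5 measured prefoldin subunits, named after their values were seen, were all higher on their brightest probe sets, beside that 47.3%. They ran from 0.10 for Pfdn4 (which turned negative after scaling to the spiked controls) to 0.29 for Pfdn5. Another probe set of Pfdn2 gave -0.33. Among 9 measured TRiC clients, actins, tubulins and related proteins, 6 were higher and 3 lower, with a median of 0.09 that turned negative after lowess (-0.05), after scaling to the spiked controls (-0.02) and after quantile normalization (-0.01). Actg1 had 8365 and 9376 (0.16) and Tubb5 8264 and 8784 (0.09). The neuronal tubulin Tubb3, also a neuron marker and named after its value was seen, had 3641 and 3202 (-0.19).

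The mitochondrial chaperonin was even. Hspd1, the HSP60 barrel, had 5726 alone and 5776 from co-culture (log2 ratio 0.01), and Hspe1, its HSP10 lid, 3907 and 4191 (0.10), both under the SD of 0.21 and both negative under at least 1 of the scalings tried. These genes lie head to head on rat chromosome 9, and the stretch between them carries a heat shock element, the repeated site of heat shock factors. It was searched on both strands as GAA, any 2 bases, TTC, any 2 bases, GAA, in RefSeq promoters of the GRCr8 build, each from 250 bases before to 50 after a gene's start, and found in 267 of 33469 promoters (0.798%) and in those of 5 of the 57 chaperone genes with a promoter in the table (Cct4, Dnaja1, Hspd1, Hspe1 and Hsph1). The stretches upstream of Hspe1 and Hsph1 are shown because the match lies before the start of the gene there, whereas those of Dnaja1 and Cct4 lie after it. Matched bases are in capitals, and overlapping matches are joined. That of Hspe1 is on the plus strand of chr9:64084242-64084299, and its matched bases also lie in the promoter of Hspd1, read from the other strand. That of Hsph1 is on the plus strand of chr12:10427312-10427364. The match of Hsph1 reads on the opposite strand, as does the first of the 2 overlapping matches of Hspe1.
Hspe1: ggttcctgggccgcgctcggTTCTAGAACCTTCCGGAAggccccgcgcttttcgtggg
Hsph1: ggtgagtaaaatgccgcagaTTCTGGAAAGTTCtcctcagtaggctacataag

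The 5 genes with that match had log2 ratios from -0.22 (Dnaja1) to 0.10 (Hspe1), with Hspd1 at 0.01, Hsph1 at 0.05 and Cct4 at 0.08, which is no common direction. A match is a description of the sequence and no evidence of binding.

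Heat-inducible chaperones as a list were near even as well. Of the 7 measured genes 2 were higher and 5 lower, and the median was -0.04 (0.05 after median scaling). All 7 lay within 1.2-fold, beside 70.8% of all genes above the filter. The regulators of the heat shock response were lower by small amounts, with Hsbp1 and Hspb1 turning positive after median scaling. Of 5 measured genes of that list, 5 were lower, beside 52.7% of all genes above the filter. Each differed by less than the SD of 1 probe set at its signal (0.21 to 0.36). None reached 1.5-fold, beside 5.23% of all genes in either direction. The median of -0.14 was negative under every scaling tried (-0.25 to -0.06). The list shares Dnajb1 and Hspb1 with the chaperones. Its brightest other member was Hsbp1, which binds heat shock factor trimers, with 925 and 882 (-0.07). Hsf1, the main factor of the heat response, had 397 alone and 331 from co-culture (-0.26), and Hsf2 had 293 and 252 (-0.22), both named after their values were seen.

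Among small HSPs all 4 genes above the filter were lower in neurons from co-culture, beside 52.7% of all genes above the filter. Of the 4, Hspb1 (-0.04) and Hspb8 (-0.00 on its brightest probe set) were near even and turned positive after median scaling. Hspb7, a small HSP of heart and other muscle, had 424 alone and 272 from co-culture, 1.56-fold lower (log2 ratio -0.64, SD 0.29, -0.74 to -0.55 over the scalings, short of 1.5-fold after median scaling, quantile normalization and lowess). Hspb6, known as HSP20, of smooth and cardiac muscle, had 303 and 239 (-0.34, SD 0.36). Hspb1, known as HSP27, which protects injured neurons, had 1591 and 1551 (-0.04), turning to 0.05 after median scaling. Hspb8, the partner of Bag3, had 625 and 623 (-0.00) and 377 and 334 (-0.17) on its probe sets. The family median was -0.19, and negative under every scaling tried (-0.30 to -0.10). Hspb2 (40.7 and 22.3) and Hspb3 (26.1 and 16.5) were dim. Cryab, which encodes alphaB-crystallin and stands outside the symbol pattern though it is a small HSP, went the other way with 4583 and 5107 (0.16), and Cryaa of the lens was dim (55.5 and 31.4). Beside these muscle-type genes, the cardiac markers Tnnt2 (293 and 408) and Nppb (180 and 309) were higher from co-culture, while the smooth muscle markers Acta2 (4040 and 2913) and Tagln (4094 and 3500) were lower, the 2 of the 10 fibroblast and smooth muscle markers that were, with the other 8 higher. All 4 were named after their values were seen. The part of cell makeup in the small HSP values was not tested.

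The endoplasmic reticulum chaperones included both of the widest upward differences. Of 8 measured members 5 were higher and 3 lower, beside 47.3% and 52.7% of all genes above the filter. The median was 0.07 (-0.04 after scaling to the spiked controls) and the range from -0.12 (Dnajb11) to 0.69 (Hspa13). Apart from Hspa13 and Dnajc3 the other 6 lay within 1.2-fold, beside 70.8% of all genes above the filter. Several such genes answer the unfolded protein response through the ER stress element. Searched on both strands as CCAAT, any 9 bases, CCACG, it was found in 22 of 33469 promoters (0.0657%), among them those of Hspa5, Hsp90b1 and Dnajc3 (3 of the 57), and a variant (ATTGG, any 1 base, CCACG) in 17, among them that of Dnajb11. The upstream stretches of the first 3 are shown because they carry the same site while their ratios were 0.15, 0.10 and 0.52, with matched bases in capitals. They lie at chr3:38452953-38453011 (plus strand, Hspa5), chr15:102432514-102432572 (plus strand, Dnajc3) and chr7:23012327-23012489 (minus strand, Hsp90b1, with 2 matches, the second on the opposite strand), all in GRCr8.
Hspa5: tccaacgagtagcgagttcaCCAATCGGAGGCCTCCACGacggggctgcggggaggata
Dnajc3: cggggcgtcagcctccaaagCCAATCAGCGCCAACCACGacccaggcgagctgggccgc
Hsp90b1: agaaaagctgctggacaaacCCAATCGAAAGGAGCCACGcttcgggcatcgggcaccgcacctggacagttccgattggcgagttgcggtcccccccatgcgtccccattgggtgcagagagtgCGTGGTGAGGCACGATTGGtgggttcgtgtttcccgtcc

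The rest of the folding machinery of this compartment did not share a direction. Of 21 measured genes of endoplasmic reticulum folding and the unfolded protein response outside the symbol pattern, 12 were higher and 9 lower, with a median of 0.03 (0.12 after median scaling, -0.07 after scaling to the spiked controls). Past 1.5-fold was 1 of the 21, beside 5.23% of all genes above the filter in either direction. That gene was Hyou1, the large HSP70 relative of the endoplasmic reticulum known as GRP170. It had 862 alone and 448 from co-culture, 1.93-fold lower (log2 ratio -0.95), and 257 and 209 (-0.30) on its other probe set. The same promoter site was found in Calr, Canx, Creld2, Ero1b and Xbp1 of this list and the variant in Hyou1 and Herpud1. Named for those sites after their values were seen, Calr, the lectin chaperone calreticulin, had 4402 and 3803 (-0.21), Canx 2097 and 2067 (-0.02) and Creld2 771 and 872 (0.18). Named likewise, Xbp1, a transcription factor of the response, had 1580 and 1413 (-0.16), and Herpud1 235 and 198 (-0.25). Ero1b was below the filter (73.3 and 70.1). The listed genes with the variant (Hyou1, Herpud1 and Dnajb11) were all lower, beside 52.7% of all genes above the filter. Those with the first site went to both sides. Ddit3, known as CHOP and induced by prolonged stress, also named after its value was seen, had 332 and 367 (0.15), and Atf4, named likewise, 2875 and 2976 (0.05).

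**Figure D4:**
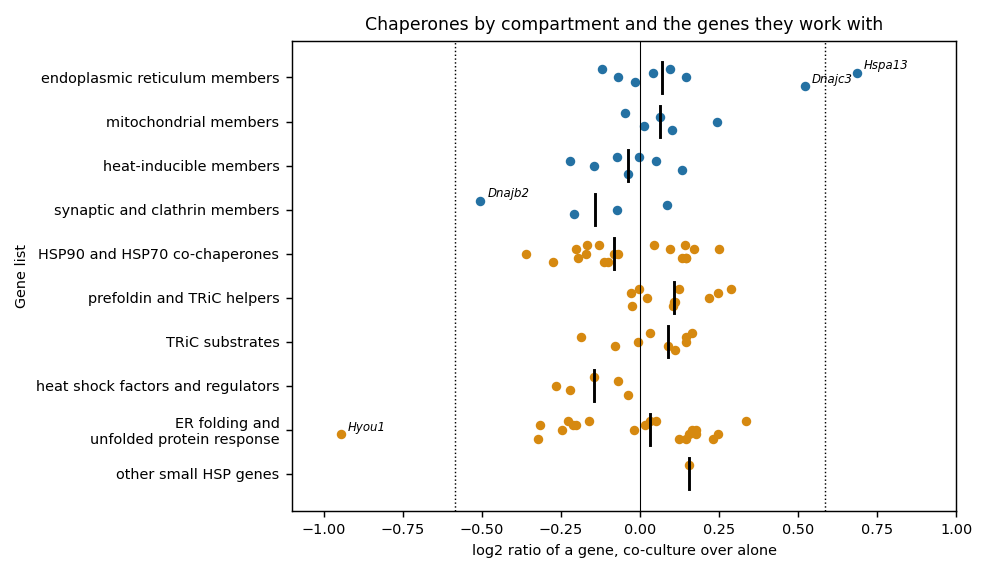
Log2 ratio of co-culture over alone (x axis) for each measured gene of 4 lists of chaperones by compartment (blue) and 6 lists of genes they work with (orange), 1 row per list, with points spread vertically for legibility, a black bar at each list's median and dotted lines at 1.5-fold. Hspa13 lies past 1.5-fold on the higher side and Hyou1 on the lower, and every other point is between the lines.

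The mitochondrial chaperones had a narrower range. Of 5 measured members 4 were higher and 1 lower, beside 47.3% and 52.7% of all genes above the filter. They ran from -0.05 (Dnaja3) to 0.24 (Hspa9), with a median of 0.06 (-0.04 after scaling to the spiked controls). The mitochondrial HSP90, Trap1, named after its value was seen, had 905 and 966 (0.09).

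The remaining members were the 3 outside any family and those below the filter. Hspg2 had 444 alone and 343 from co-culture (-0.37) and is made by matrix-producing cells as well as other types, and Hspbap1 (149 and 120) was below the filter. In all, 23 probe sets were below it, 16 genes had no probe set above it, 6 probe sets were under the floor in both arrays and 4 in 1 array. The members nearest the filter were Dnaja4 on its dimmer probe set (191 and 170) and Hspa4 just inside, and Dnajc22 (130 and 173) and Dnajb5 just outside. Where 1 value was under the floor, as for Dnajb3 and Dnajc17 (22.5 and 67.0), the size of the difference depends on the floor and is not given.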

How the data were processed

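The arrays (Affymetrix Rat Expression Set 230A) were quantified with dChip 1.3 per the series' design text, while the submitters' processing notes name MAS5. Which of them the authors used for the deposited intensity, and how it was scaled, is not given in the sources used here. Each of 15923 probe sets (57 controls) has 1 linear intensity per array.

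Values under the pooled 20th percentile (39.6) were raised to it, and the log2 value alone was subtracted from that of co-culture, with no further scaling. The precision is limited by the number of arrays. Symbols came from the platform annotation (12783 probe sets with 1 symbol, 312 with several, 2771 with none), updated to GRCr8 RefSeq names. A gene is its brightest probe set, by the mean log2 value of both arrays. No test was run.

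Named genes were those at 1.5-fold, up to 6 of the brightest per family, TRiC subunits, genes whose probe sets differ in sign, and for other lists those at 1.5-fold or the 2 brightest. The text says of any other gene above the filter whose ratio it gives that its value was seen first. Genes below the filter are given without that note. Members and lists were chosen with earlier results of these data known. The processing was tested on simulated data. Python 3.11.15, NumPy 2.4.6, pandas 2.3.3 and statsmodels 0.14.6 were used. Alternatives were 5 scalings, 3 floors, 2 filters, 2 rules for a gene's probe set and a 2-fold limit.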

Additional observations from a re-analysis of the deposited data

How the results depend on the processing

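Scaling to the spiked controls moved the median log2 ratio of all genes above the filter by -0.11 and median scaling by 0.09. Of the 62 chaperone probe sets, 1 was 1.5-fold higher and 3 were lower as deposited. These counts were 2 and 1 after median scaling, 1 and 1 after quantile normalization, lowess, or a pseudocount in place of the floor, 0 and 4 after scaling to the spiked controls, 3 and 3 with the filter at the 25th percentile or none, and 0 and 1 at 2-fold. Over all probe sets the higher share of 1.5-fold differences was 31.1%, against 51.5% after median scaling, 45.4% after quantile normalization, 44.2% after lowess and 13.6% after scaling to the spiked controls. Median scaling gave 0.10 for all chaperone genes, 0.070 for DNAJC, 0.12 for the endoplasmic reticulum folding list and 0.0049 in place of -0.08 for the cochaperones. Scaling to the spiked controls gave -0.094, -0.12, -0.073 and -0.19 for these, and -0.042 for TRiC, -0.037 for endoplasmic reticulum members, 0.0010 for the prefoldin list and -0.018 for TRiC substrates, which were at -0.012 after quantile normalization and -0.052 after lowess. Without a filter the small HSP median was -0.038, and that of the crystallins -0.16. Of the other values, 224 of 240 list medians stayed within their spread (the SD of 1 probe set over the square root of the number of genes), and 646 of 648 values of named genes within 1 SD of a probe set. The exceptions were Bag6 (-1.36) and Hyou1 (-0.62) at the mean over probe sets. Much of both counts was fixed beforehand, so neither is a test of robustness. No list median changed with the floor at the 40th percentile or with no floor. The spread of a list of few genes is wide, as for the crystallins (0.29). The filter does not enter a gene's value, and scaling by 1 factor per array moved ratios by less than the smallest SD (0.21). Signs changed in 31 of the 240 list medians (14 results) and in 55 of the 648 values of named genes (25 genes). The cause of each shift beyond the scale itself was not tested. No paired analysis was possible because each condition has 1 array. No replicate could be left out for the same reason.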
